A study of Homo sapiens with 8 samples.

Results

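The 38 genes described here act in homologous recombination and the DNA damage response. They were taken as a named list, together with each gene's body in the GENCODE release 44 annotation and 50 kb on either side, out of 20033 protein-coding genes. In these windows, peaks of the estrogen receptor (ER) with a q-value under 0.05 were counted in 4 libraries. The windows held 196 of the 25365 sites that the peaks of all libraries formed, a site being a run of peaks that overlap by at least 1 bp.

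The lists come from ChIP-seq, in which an antibody against ER pulls down the DNA it occupies and that DNA is sequenced. The cells were LY2, a tamoxifen-resistant ER+ breast cancer line derived from MCF-7. All cells went 24 h without serum and 4-hydroxytamoxifen and carried an siRNA for 48 h, either a pool against CDK12 (siCDK12) or a non-targeting control (siCtrl). All were then exposed for 1 h to β-estradiol at 1 µmol/L. The siCtrl libraries are replicates 2 and 3 and the siCDK12 libraries are replicates 3 and 4, so there were 2 libraries per condition from 1 line. Input libraries, 2 per condition, were not analysed here.

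Homologous recombination repairs a double-strand break by copying the intact sister strand. The MRE11, RAD50 and NBN proteins sense the break, nucleases trim its ends, BRCA1 with its partners leads BRCA2 to the site, and further proteins carry out strand exchange. The Fanconi anemia proteins open the way for this repair at crosslinks, and the kinases ATM and ATR raise the checkpoint. CDK12 is a kinase of RNA polymerase II that is known for keeping long genes of this pathway transcribed, so the question of the comparison was whether these genes also carry ER binding, and whether it differed after CDK12 knockdown.

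Most of the sites counted around these genes lay at 1 gene, BRIP1, at low enrichment. The estrogen response element was found at 1.53% of all 196 sites, against 1.91% of the sites elsewhere. Among sites with peaks of both siCtrl libraries it was found at 2.5% of 40 in these windows, against 27.8% of 627 elsewhere. Of these 40 sites, 37 lay at BRIP1, and none of the 37 held an element. Of the 3 others, at MDC1, NBN and XRCC3, 1 held it, that of MDC1. The sequences of some sites with an element are shown first, 201 bases centred on the summit on the plus strand of GRCh38. Capitals mark the element GGTCANNNTGACC with no more than 1 of its 10 fixed bases mismatched. Among the 196 sites, 3 held such an element within 100 bp of the summit, in the windows of MDC1, BRIP1 and RBBP8. The sites of MDC1 and BRIP1 are printed, and their mismatches, counted from 1 at the left end of the element with the element's base first, were G2C and C13T.
MDC1, chr6:30751634-30751834: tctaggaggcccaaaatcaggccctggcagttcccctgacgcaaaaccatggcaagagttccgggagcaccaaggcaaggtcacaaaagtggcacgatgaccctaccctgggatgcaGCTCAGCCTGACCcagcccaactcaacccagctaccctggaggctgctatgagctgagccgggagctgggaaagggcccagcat
BRIP1, chr17:61799910-61800110: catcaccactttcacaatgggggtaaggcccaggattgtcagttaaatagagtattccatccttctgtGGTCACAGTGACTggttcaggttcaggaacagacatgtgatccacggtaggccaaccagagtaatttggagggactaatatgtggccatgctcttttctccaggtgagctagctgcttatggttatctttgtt

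The next sequence is that of a site just outside the RAD51C window, shown because it has the highest -log10 q of any site within 100 kb of these genes and carries the element without a mismatch.
Beside RAD51C, chr17:58639743-58639943: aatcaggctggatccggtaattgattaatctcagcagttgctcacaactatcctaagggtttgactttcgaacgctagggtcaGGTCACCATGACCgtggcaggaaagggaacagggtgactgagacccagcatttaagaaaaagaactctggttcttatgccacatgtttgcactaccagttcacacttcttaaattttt

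Each deposited peak has a fold enrichment, which the authors' caller MACS2 takes as the pileup of fragments over the local background, and a q-value, given here as -log10 q. Both are set within a library and are not normalized between libraries. The pileup and the local background at each summit were solved from the deposited fold and p-value. The siCtrl libraries had 12021 and 4955 peaks with a q-value under 0.05 and the siCDK12 libraries had 4819 and 5224. Their median peaks rested on 9, 11, 10 and 10 fragments, so most peaks were weak. Read totals are not part of peak lists. For reference, 31 genes of the textbook estrogen response were counted in the same way. Of these, 13 (41.9%) had a site in both siCtrl libraries, against 3.69% of other protein-coding genes. There were 3 such sites at GREB1 and 2 each at ABCA3 and ADORA1. This gene list was chosen with earlier results of these data known, so it is not an independent check.

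Of the 38 repair genes, 23 had at least 1 site of any library in their window and 15 had none. Among the other 19995 protein-coding genes the share with a site was 53.5%, and genes whose window length lay within 10% of each member's would have given 22.5 such genes. The 15 without a site were RAD54L, USP1, CHEK1, ATM, MRE11, FANCF, BLM, TP53BP1, FANCI, RAD51D, BARD1, ATRIP, FANCE, WRN and FANCG. By this count the repair genes were close to other genes of their length. The windows ran from 103 kb to 1010 kb, with a median of 177 kb, and no pair of them overlapped.

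**Figure D1:**
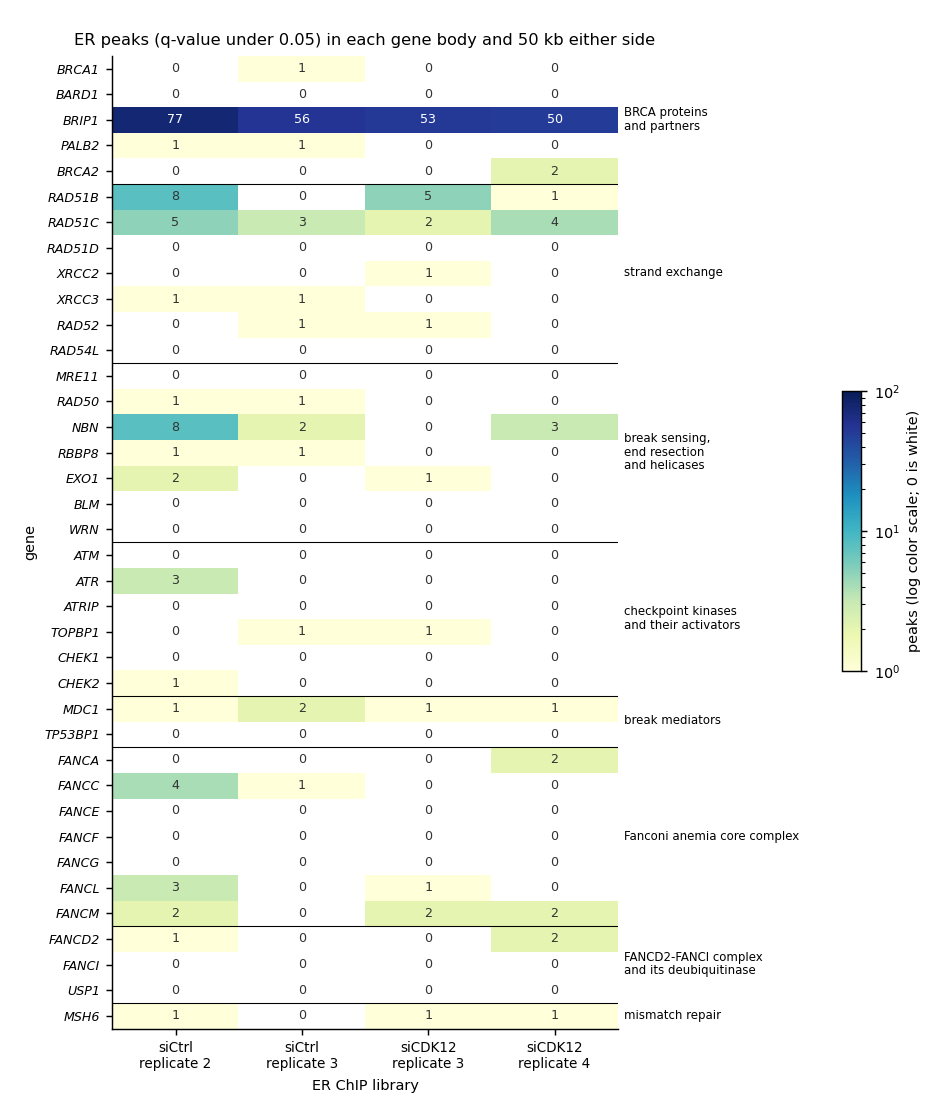
Number of ER peaks with a q-value under 0.05 in the window of each of the 38 repair genes (rows, grouped by role) in each of the 4 libraries (columns). The color is on a log scale and 0 is white. BRIP1 stands apart with 77, 56, 53 and 50 peaks, and no other gene has more than 8 in any library.

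A site held peaks of both siCtrl libraries at 4 of the 38 genes, BRIP1, MDC1, NBN and XRCC3. The siCtrl peaks of such a site need not overlap each other, since a peak of another library can join them. The share among other protein-coding genes was 3.69%, and genes of like window length would have given 1.52. The 4 windows held 40 such sites, of which 37 lay at BRIP1. Genes of like length would have given 1.97 sites, so the ratio was 20.3 (exact binomial 95% interval 14.6 to 27.3, counting error only). Without BRIP1 it was 1.59, from 3 sites against 1.89. The 80 other DNA repair genes, counted as a reference, had such a site at 3 genes, CENPX, BABAM2 and XRCC4, with 4 sites in all.

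**Figure D2:**
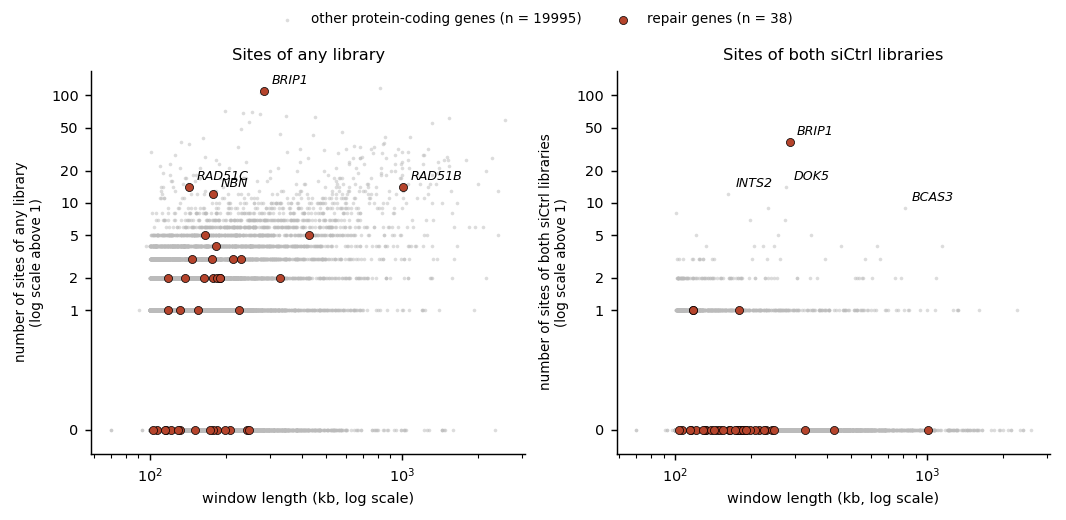
Number of sites of any library (left) and of both siCtrl libraries (right) in each gene's window, plotted against window length on a log scale, with counts above 1 on a log scale. Gray points are the 19995 other protein-coding genes and red points the 38 repair genes, with MDC1 and XRCC3 drawn over each other at 1 site on the right. BRIP1 lies at 110 and 37 sites, and 34 of the repair genes lie at 0 on the right.

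Lost sites, peaks of both siCtrl but of no siCDK12 library, numbered 14 in the member windows, 12 at BRIP1 and 1 each at NBN and XRCC3. Genes of like window length would have given 1.31. A lost site was present at 2.84% of other protein-coding genes. Per site, 14 of the 40 sites of both siCtrl libraries in member windows were lost, against 455 of 667 (68.2%) over the whole series. The mirror case, a gained site, occurred 4 times, all at BRIP1, and at 0.285% of other genes. A site of both siCDK12 libraries was found at BRIP1 and MDC1, against 0.76% of other genes, and a site of all 4 libraries at the same 2 genes, against 0.485%.

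Within the 38 windows siCtrl replicates 2 and 3 had 120 and 71 peaks, and siCDK12 replicates 3 and 4 had 69 and 68. Each siCtrl library was above both siCDK12 libraries, and the siCDK12 mean was 0.717 times the siCtrl mean (p = 0.333 by an exact permutation test, two-sided, which is the smallest p that 6 assignments of 4 libraries allow). The lists differ in size, and as a share of each list these peaks were 0.998% and 1.43% in siCtrl and 1.43% and 1.30% in siCDK12, which overlap. Without BRIP1 the numbers were 43 and 15 against 16 and 18, or 0.586 times by the means (p = 1 by the same exact permutation test), and the groups overlapped.

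BRIP1 (ENSG00000136492), the helicase that binds the BRCT repeats of BRCA1 and is also called FANCJ, lies at chr17:61679139-61863559 on the minus strand. Its window of 284 kb held 77 peaks in siCtrl replicate 2, 56 in siCtrl replicate 3, 53 in siCDK12 replicate 3 and 50 in siCDK12 replicate 4. Each siCtrl count was above both siCDK12 counts. As a share of each list, however, the BRIP1 peaks were 0.641% and 1.13% in siCtrl and 1.10% and 0.957% in siCDK12, which overlap. The peaks formed 110 sites. Among all 20033 protein-coding genes it ranked 1 by the number of sites of both siCtrl libraries and 2 by sites of any library, and none of the 742 genes of like window length had as many. Next by sites of both siCtrl libraries came DOK5 on chromosome 20 with 14 and INTS2, the neighbor of BRIP1, with 12.

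The BRIP1 sites were spread over the whole window. There were 73 sites in the gene body, 39.6 per 100 kb, 16 in the flank beyond the gene's end, 32.0 per 100 kb, and 21 in the flank before its start, 42.0 per 100 kb. In the canonical transcript 71 lay in introns and 2 in exons. The nearest transcription start of any gene was that of BRIP1 for 83 sites, of INTS2 for 16, of NACA2 for 7 and of a Y RNA for 4. The site of both siCtrl libraries nearest to the BRIP1 start was 3.01 kb away.

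All of these peaks stood on a high local background and had a low fold. The median background in the BRIP1 window, with siCtrl replicates 2 and 3 before siCDK12 replicates 3 and 4, was 24.6, 27.8, 30.9 and 30.0 fragments, against 1.12, 1.75, 1.69 and 1.66 over all peaks of the same libraries. The BRIP1 medians were thus at least 15.9 times those of the lists. The median fold was 2.42, 2.28, 2.16 and 2.24 in the same order, against 4.22, 4.17, 4.09 and 4.12, and the highest in any library was 3.72. No BRIP1 peak reached a fold of 5. The part of the background in the number of BRIP1 sites was not tested.

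The raised background did not end at BRIP1. In 100 kb steps along chromosome 17, the median background of siCtrl replicate 2 peaks was 21.0 fragments between 700 and 600 kb downstream of the BRIP1 start, and it stayed between 18.6 and 26.4 from there to 100 kb upstream of it. The next 2 steps upstream, with 2 and 3 sites, had 23.7 and 18.2, each from a single peak of this library. Among peaks of the other libraries there, those at 171 kb (siCDK12 replicate 3) and 221 kb (siCtrl replicate 3) had 2.33 and 2.02. The rest had 18.4 to 22.2. It was 1.89 between 1000 and 900 kb downstream, and 2.27 at 400 to 500 kb upstream. The raised stretch also holds part of BCAS3, and TBX2, TBX4, NACA2, INTS2 and part of MED13. These had 118, 22, 37, 30, 40 and 12 sites in their own windows, some of them shared. Both conditions showed it. Whether the caller took the local background from the input or from the ER library itself is not given in the sources used here.

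**Figure D3:**
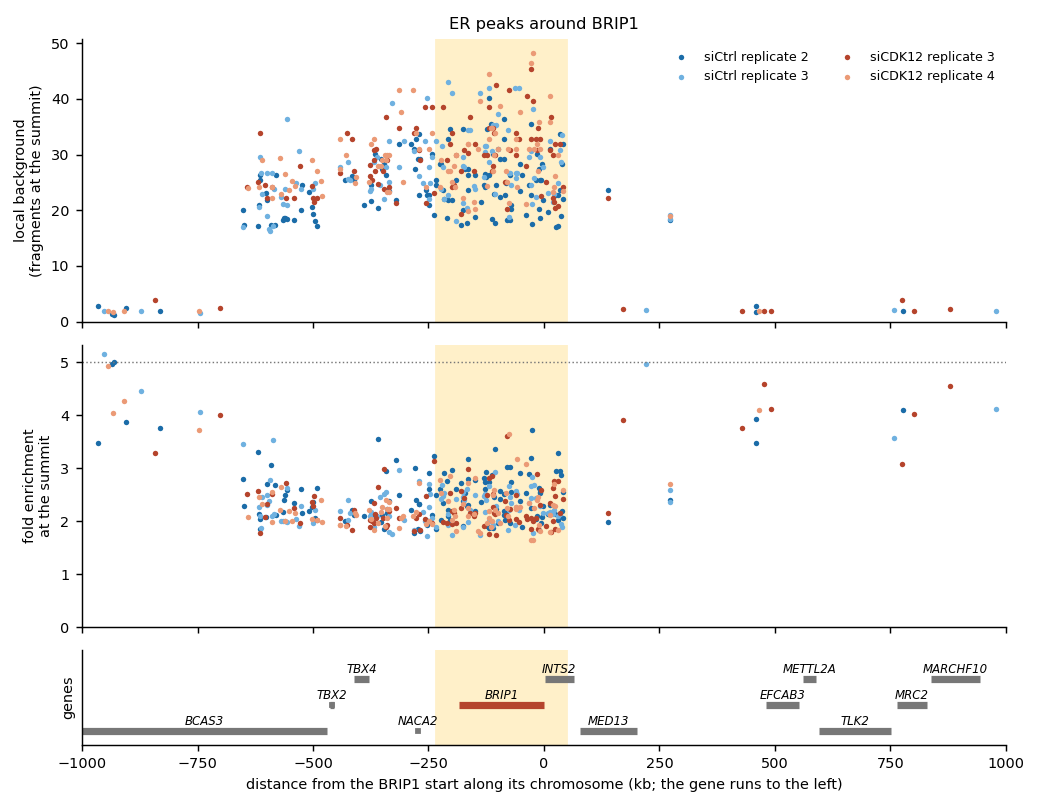
Local background in fragments (top) and fold enrichment (middle) of each ER peak within 1000 kb of the BRIP1 start, by distance along chromosome 17 in kb, colored by library, with protein-coding genes drawn at the bottom. The shaded window is that of BRIP1, and the dotted line marks a fold of 5. Peaks between 600 kb to the left of the start and 50 kb to its right stand on more than 10 fragments, and no peak in the window reaches the dotted line.

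**Figure D4:**
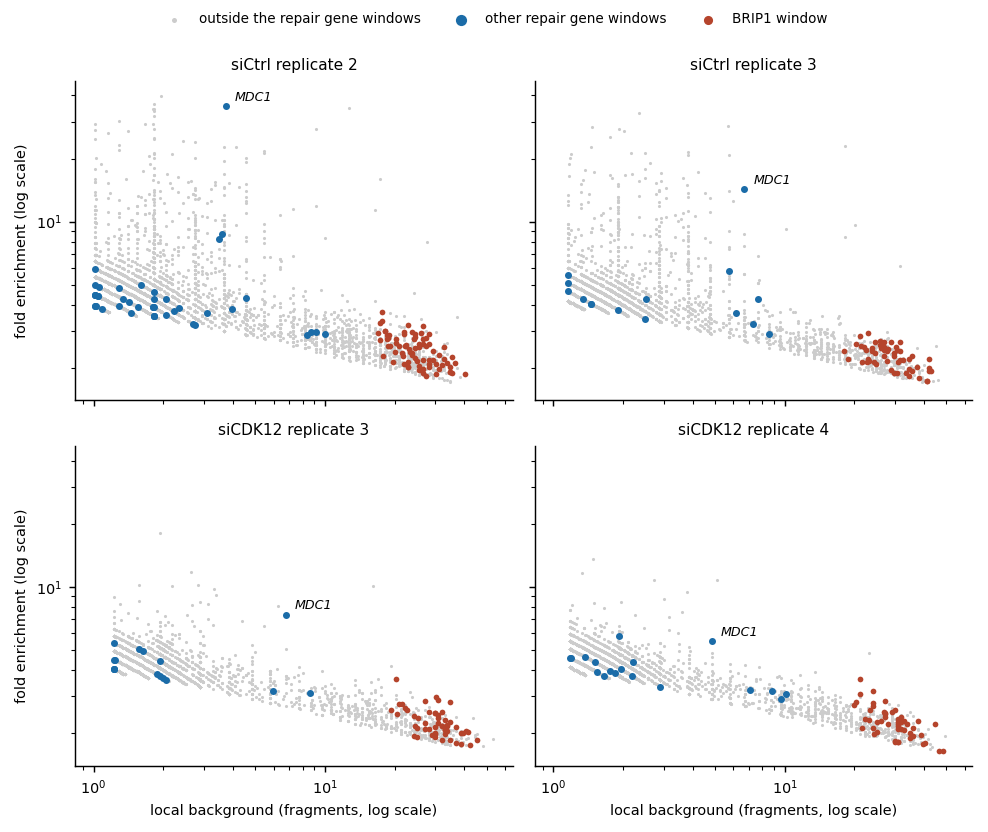
Fold enrichment against local background, both on log scales, for each ER peak with a q-value under 0.05 in each library. Red points lie in the BRIP1 window, blue points in the windows of the other repair genes and gray points elsewhere. BRIP1 peaks sit at backgrounds of over 16 fragments and folds of at most 3.72, and the MDC1 site stands out with folds of 35.6, 14.3, 7.35 and 5.49.

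BRIP1 sites recurred between libraries of either condition. Of the 95 sites with a peak of either siCtrl library, 37 (38.9%) had both, and of the 76 with a peak of either siCDK12 library, 27 (35.5%) had both. For the 4 pairs of 1 siCtrl and 1 siCDK12 library the shares were 31.3% to 35.0%. Outside the window the same shares were 3.89% for siCtrl, 1.91% for siCDK12 and 1.73% to 2.43% for mixed pairs. A share of 32.4% of the BRIP1 sites of both siCtrl libraries was lost (12 of 37, exact binomial 95% interval 18.0% to 49.8%), against 70.3% outside (443 of 630, 66.6% to 73.9%). These intervals cover counting error only and treat neighboring sites of the same stretch as independent. BRIP1 peaks had median pileups of 59, 68, 69 and 69 fragments, against 9, 11, 10 and 10 over all peaks. The peaks covered 6.16% and 4.23% of the BRIP1 window in siCtrl replicates 2 and 3. In siCDK12 replicates 3 and 4 they covered 4.37% and 4.24%. Peaks this dense can overlap by placement alone. The parts of pileup and of peak density in the recurring and lost shares were not tested. All 4 libraries had a peak at 8 BRIP1 sites, which is 12.1% of the 66 sites of that kind in the genome.

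The strongest BRIP1 site of all 4 libraries, in intron 10, had folds of 1.97, 2.67, 2.02 and 3.64 in the same order of libraries. Its -log10 q was 1.99, 8.37, 3.80 and 15.9, so siCDK12 replicate 4 was highest and the conditions overlapped. The siCtrl replicate 2 peak of this site overlapped the siCDK12 replicate 4 peak alone. The siCtrl peaks thus did not overlap each other, and the values come from different positions within the site. The strongest lost BRIP1 site, in intron 6, had folds of 3.72 and 2.84 in the siCtrl libraries, from 68 and 62 fragments over backgrounds of 17.6 and 21.2. The BRIP1 site with an element, in intron 8, was found in siCtrl replicate 3 alone, with a fold of 1.93 and a -log10 q of 3.25.

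The element was scarce at BRIP1. None of its 37 sites of both siCtrl libraries held one (exact binomial 95% upper limit 9.49%), and 1 of the 37 windows centred 1000 bp downstream did. Of the 627 sites of both siCtrl libraries outside the member windows, 174 (27.8%, 24.3% to 31.4%) held one, and 2 of the downstream windows did. The arm GGTCA alone was found at 10 of the 37 BRIP1 sites and 8 of their downstream windows, against 470 and 193 of the other 627. Over all 196 member sites the share with an element was 1.53% (0.317% to 4.41%), an interval that holds the 1.91% of the 25169 sites elsewhere, and without BRIP1 it was 2.33% (0.283% to 8.15%). The windows centred 1000 bp downstream held an element for 1.02% of the 196 member sites and 0.366% of the sites elsewhere. Error other than that of counting is not in the intervals given here. The 627 other sites were not matched to the BRIP1 sites by fold or local background. The part of these in the element shares was not tested.

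The other BRCA proteins had few and weak peaks. BRCA1, the ubiquitin ligase subunit that organizes the repair of breaks, had 1 peak, in siCtrl replicate 3, with a fold of 5.57 and a -log10 q of 3.76, 10.8 kb beyond the gene's end. PALB2, which bridges BRCA1 and BRCA2, had 1 peak in each siCtrl library, 1 lying 396 bp from a start of UBFD1 and the other 250 bp from a start of PLK1. BRCA2, which acts in strand exchange, had 2 peaks in siCDK12 replicate 4, 1 of them in its intron 18. BARD1, the partner of BRCA1, had none in any library.

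MDC1 (ENSG00000137337), the scaffold that binds phosphorylated histone H2AX at breaks, had the strongest site inside any of the 38 windows, chr6:30751584-30751880. It was present in all 4 libraries with siCtrl folds of 35.6 and 14.3 and siCDK12 folds of 7.35 and 5.49. Both siCtrl folds were above both siCDK12 folds. The pileups were 167, 109, 56 and 31 fragments over backgrounds of 3.72, 6.69, 6.76 and 4.83, and among the peaks of their library by -log10 q they ranked 4, 11, 5 and 21. So the siCDK12 peaks were smaller in fragments but still among the strongest of their lists.

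This site lies 34.5 kb before the canonical start of MDC1, which is on the minus strand at chr6:30699807-30717447. TUBB, FLOT1 and IER3 lie in between, and the nearest protein-coding start was that of IER3, an early response gene, at 7.19 kb. The nearest start of any gene was that of RN7SL353P, a 7SL RNA pseudogene, at 696 bp. The centre of the element printed for MDC1 is 23 bp from the summit. A second MDC1 peak, 39.7 kb outside the gene body, was found in siCtrl replicate 3 with a -log10 q of 1.35. TP53BP1, the other mediator, had no peak.

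NBN (ENSG00000104320), the break sensor that recruits ATM, had 8 and 2 siCtrl peaks against 0 and 3 siCDK12 peaks, 12 sites in all, and 0.508% of the genes of like length had as many. Its site of both siCtrl libraries, chr8:90001519-90002025, had folds of 8.70 and 5.79, from 39 and 38 fragments over backgrounds of 3.60 and 5.73. Neither siCDK12 list held a peak there, also without the limit on q. The summit lay 136 bp from a start of DECR1, a mitochondrial reductase of fatty acid oxidation, and outside the canonical transcript of NBN. No element was found within 100 bp of this summit. The other NBN sites were each found in a single library. Over all NBN peaks the backgrounds were 1.33 to 3.27 times the median of their library. The part of the background in the NBN count was not tested.

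XRCC3 (ENSG00000126215), a strand exchange gene, had 1 site, chr14:103693528-103693728, 3.97 kb beyond its end. Its siCtrl folds were 8.28 and 4.28, from 36 fragments in each over backgrounds of 3.47 and 7.64, and neither siCDK12 list held a peak there at any q. The site lies in KLC1, a kinesin light chain gene on the other strand, and the nearest protein-coding start, 1.28 kb away, was one of KLC1. It held the arm GGTCA but no element.

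**Figure D5:**
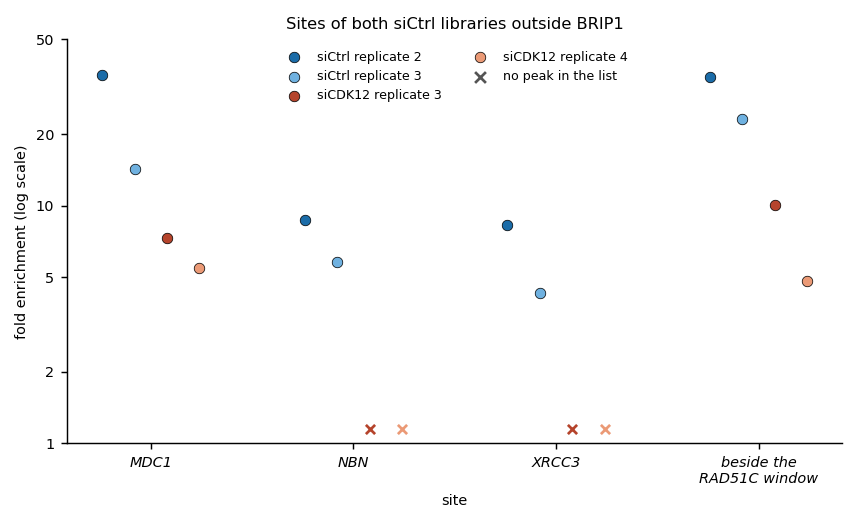
Fold enrichment on a log scale of the 3 sites of both siCtrl libraries outside the BRIP1 window and of the site just outside the RAD51C window, by library. Crosses stand for no peak in the list. At MDC1 and beside RAD51C the 2 siCtrl folds lie above the 2 siCDK12 folds, and at NBN and XRCC3 the siCDK12 libraries have no peak. The first 3 sites were picked for their siCtrl peaks. The last was picked for its highest -log10 q, which was that of siCtrl replicate 2. Both choices favor higher siCtrl values. Over the whole series, 68.2% of the sites of both siCtrl libraries had no siCDK12 peak.

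RAD51C (ENSG00000108384), also a strand exchange gene, had 5 and 3 siCtrl peaks against 2 and 4 siCDK12 peaks, at 14 sites that no pair of libraries shared. Of the genes of like length 0.298% had as many sites. The folds were between 2.88 and 4.32, and the backgrounds, 3.96 to 10.1 fragments, were 3.50 to 8.97 times the median of their library. The strongest had a -log10 q of 5.28, in siCtrl replicate 2, 40.6 kb beyond the gene's end. The part of the background in the RAD51C count was not tested.

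A far stronger site lay 2.58 kb outside the RAD51C window, chr17:58639694-58639993, within TEX14 and 52.8 kb before the RAD51C start. Its -log10 q was 544 and 422 with siCtrl against 102 and 35.6 with siCDK12, and it ranked 1, 1, 1 and 2 in these lists. Its folds were 34.8, 23.1, 10.1 and 4.84, from 478, 441, 172 and 116 fragments, so both siCtrl libraries were above both siCDK12 libraries. It carries the element without a mismatch, centred at -11 bp from the summit on the plus strand. The limit of 50 kb keeps it out of the counts, as it keeps out a site 21.3 kb outside the CHEK2 window that was present in siCtrl alone with folds of 8.10 and 4.67.

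The remaining strand exchange genes had weak peaks or none. RAD51B, with the longest window, had 8 and 0 siCtrl peaks against 5 and 1 siCDK12 peaks, all in a single library each, and 27.6% of the 58 genes of like length had as many sites. RAD52 had 1 peak in siCtrl replicate 3 and 1 in siCDK12 replicate 3, and XRCC2 had 1 in siCDK12 replicate 3. RAD51D and RAD54L had none.

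Among the genes of end processing, RAD50 had 1 peak in each siCtrl library at separate sites, 1 of them 37 bp from a start of IRF1. RBBP8, the nuclease cofactor CtIP, had 1 in each siCtrl library, and the one in its intron 17 held an element with 1 mismatch, at a -log10 q of 1.80. The nuclease gene EXO1 had 2 peaks in siCtrl replicate 2 and 1 in siCDK12 replicate 3. MRE11 and the helicase genes BLM and WRN had none.

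Of the checkpoint genes, ATR had 3 peaks, all in siCtrl replicate 2, the strongest in intron 38 with a -log10 q of 4.47. CHEK2, a kinase that ATM activates, had 1 peak in the same library. TOPBP1, the activator of ATR, had 1 peak in siCtrl replicate 3 and 1 in siCDK12 replicate 3. ATM, ATRIP and CHEK1 had none.

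In the Fanconi anemia group, FANCD2, the subunit that is ubiquitinated at crosslinks, had 1 peak in siCtrl replicate 2 and 2 in siCDK12 replicate 4, the stronger with a -log10 q of 4.90. FANCM, the translocase of the core complex, had 2 and 0 siCtrl peaks against 2 and 2 siCDK12 peaks, and 1 of its sites, in intron 20, was shared by siCtrl replicate 2 and siCDK12 replicate 4. FANCC had 4 and 1 peaks in siCtrl and none in siCDK12. FANCL, the ligase subunit, had 3 peaks in siCtrl replicate 2 and 1 in siCDK12 replicate 3, and FANCA had 2 in siCDK12 replicate 4. FANCE, FANCF, FANCG, FANCI and USP1 had none. MSH6, of mismatch repair, had 1 peak in siCtrl replicate 2 and 1 in each siCDK12 library.

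Outside BRIP1, 82 of the 86 member sites (95.3%) were found in a single library, close to the 95.1% of the sites outside all member windows. The median fold of these windows' peaks was 3.95, 4.26, 4.04 and 3.95 in the order of libraries above, and the median pileup was 10, 11, 10 and 11 fragments, close to those of the whole lists. By the start of the canonical transcript, 18 of the 38 genes (47.4%) had a site of any library within 50 kb, against 43.8% of other protein-coding genes, and 4 (10.5%) had a site of both siCtrl libraries, against 2.51%. For the estrogen response genes the shares were 74.2% and 38.7%. The median distance from the member starts to a site of both siCtrl libraries was 1732 kb, against 2051 kb for other genes and 126 kb for the estrogen response genes.

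The RefSeq promoter windows of GRCh38, 250 bases before to 50 after the start, could be matched for 35 of the 38 genes. None held the element with at most 1 mismatch, on either strand, against 0.607% of 15310 other promoters. Peaks lay within 1 kb of an annotated start of 5 of the genes, BRIP1, FANCD2, FANCL, FANCM and NBN, with other transcripts than the canonical one included, against 4.15% of other protein-coding genes. Those of FANCD2, FANCL, FANCM and NBN were each found in 1 library, with a -log10 q of 1.85 to 2.74. BRIP1 was the only one of the 5 with a site of both siCtrl libraries there, against 0.305% of other genes.

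In member windows the limit on q kept 120, 71, 69 and 68 peaks and left out 18, 9, 14 and 8, or 10.5% to 16.9% of each library's. Over the whole lists it left out 20.4% to 28.1%. The weakest kept had a -log10 q of 1.32, 1.35, 1.35 and 1.31, and the strongest left out 1.28, 1.26, 1.30 and 1.21.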

How the data were processed

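Per the study's methods, the authors filtered single-end reads of 50 bp, ran BWA-MEM against GRCh38 within the nf-core framework and called narrow peaks with MACS2 at a stated false discovery rate of 0.05, separately in each library. The deposited fold enrichment is a ratio of fragment pileup over local background at the summit, and the deposited p-value and q-value are on the -log10 scale. The deposited score is made from the p-value and was not used. The lists also hold peaks with a q-value above 0.05, which were left out here.

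Autosomal, X and Y peaks were joined into sites where they overlapped by at least 1 bp. A site belonged to every window it overlapped by at least 1 bp. Like-length genes had a window within 10% of the member's, and expected counts are sums of their means (58 to 7912 genes per member). Pileup and background were solved from fold, taken as (pileup + 1) over (background + 1), and p. The element was searched within 100 bp of the summit and around a point 1000 bp downstream. Numbers of peaks were compared by an exact permutation test over libraries, and nothing says that these came from separate cultures, so its p-values measure only the spread between libraries. Shares have Clopper-Pearson 95% intervals. The functions for windows, merging, site classes, elements and pileups were tested on simulated data, where planted sites and elements were all found. Those for the arm GGTCA, the nearest start and reading the annotation were not tested in this way. The depth of each library is unknown.

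All 38 genes are accounted for. The sequences of some sites are not reported here. Values in every library are given for those with a site of both libraries of a condition or with any -log10 q of 5 or more. The members, the lists and the roles were chosen with earlier results of these data known. The authors' differential binding test needs reads and was not repeated. Alternatives were other limits on q and fold, other windows, the nearest start, other overlaps, equal list sizes, other element settings, other reference genes and each library left out. Tables were made with pandas 2.3.3 and numpy 2.4.6 under Python 3.11.15, intervals with SciPy 1.17.1, sequences with pysam 0.24.0 and plots with matplotlib 3.10.9.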

Additional observations from a re-analysis of the deposited data

How the results depend on the processing

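Of 81 alternative values, 55 stayed within 1.5 times the reported count or within the interval or direction of the reported value, and 26 moved. The repair genes with a site of both siCtrl libraries numbered 4 as reported. At a -log10 q of 3 or more the sites of both siCtrl libraries numbered 25. At 5 or more there were 14 such sites and a density ratio of 12.8. A fold limit of 5 left 2 genes, MDC1 and NBN, with 2 sites, a ratio of 1.89 and 1 lost site. Within 50 kb of the canonical start there were 15 sites, a ratio of 13.2 and 7 lost sites. With sites given to the nearest start, 1 gene, BRIP1, kept any, with a ratio of 40.6 and 8 lost sites. With no mismatch allowed, the share of sites with an element was 0%. Without BRIP1, which was left out after its values were seen, 3 sites, a ratio of 1.59 and 2 lost sites were left. A flank of 10 kb dropped MDC1, and 100 kb added RAD51C and CHEK2. The share of sites with an element was 2.33% without BRIP1, which turns it from below to above the 1.91% of sites elsewhere. No ratio changed direction, and with an exact permutation test over libraries no peak number ratio could reach p = 0.05.

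With each library left out in turn the genes ranged from 4 to 17, the sites from 39 to 120, the density ratio from 3.90 to 20.3, the lost sites from 21 to 72 and the peak number ratio from 0.571 to 0.965. A condition left with 1 library needs no second peak, so counts rise by construction. Without siCtrl replicate 2 there were 12 genes, 71 sites, a ratio of 5.12 and 30 lost sites, and without siCtrl replicate 3 there were 17 genes, 120 sites, a ratio of 3.90 and 72 lost sites. Lost sites numbered 24 without siCDK12 replicate 3 and 21 without siCDK12 replicate 4.

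No paired analysis was possible because siCtrl and siCDK12 have just replicate number 3 in common. Peak lists cannot tell a weaker peak from none, and folds and q-values depend on the depth of each library, which the lists do not give.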

Other observations

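Of the peaks whose -log10 q was 5 or more, the BRIP1 window held 40 of 809 in siCtrl replicate 2 (4.94%) and 25 of 468 in siCtrl replicate 3 (5.34%). It held 17 of 130 in siCDK12 replicate 3 (13.1%) and 18 of 109 in siCDK12 replicate 4 (16.5%). Peaks on a local background at least as high as the lowest of the BRIP1 window numbered 381 and 320 in the siCtrl libraries and 266 and 260 in the siCDK12 libraries, and 17.5% to 20.2% of them lay in that window. The window held 5.55% of all sites of both siCtrl libraries and 12.7% of all sites of both siCDK12 libraries. These shares were chosen after the values were seen and were not tested.

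DOK5 and BCAS1 on chromosome 20, which are not repair genes, had 105 and 69 sites, of which 14 and 9 were of both siCtrl libraries.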
